A study of Mus musculus with 6 samples.

Results

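Cluster 12 is a small group of CD4 T cells from the mouse colonic lamina propria that carried the highest Il17a level of the 16 clusters in the study's single-cell RNA map. Its members were all cells that the deposited cell table places in phenograph cluster 12 (a graph-based grouping of cells by gene expression) and assigns to a hashed replicate. The rule found 326 cells among 18658 cells with both a replicate and a cluster, of 23595 cells in all. Of these 326 cells, 301 came from the tdTomato+GFP+ sort gate and 25 from the tdTomato-GFP- gate.

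Both gates came from mice with the alleles Foxp3{delta}EGFPiCre/WT and R26lsl-tdTomato/wt: by their names, a green fluorescent protein joined to a Cre recombinase at the Foxp3 gene, and a tdTomato reporter that Cre switches on. The labels give the alleles by name only and do not explain the {delta}. Whether the tagged Foxp3 copy makes Foxp3 protein is therefore not given, and the WT names a wild-type copy beside it. Each gate was 1 10x lane that pooled 3 biological replicates marked by hashtag antibodies, with 5000 cells put in per replicate and 15000 aimed for per lane. The gate and the lane therefore cannot be told apart, and the labels give no treatment, age or time point. The p-values below measure the spread between these 3 hashed replicates.

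Th17 cells are CD4 helper T cells that secrete interleukin-17A and interleukin-17F, cytokines that act on epithelial and stromal cells and draw in neutrophils, and they are common in the gut wall, where microbes shape their number. Foxp3 is the defining factor of regulatory T cells, and a Cre made from its locus leaves a lasting mark in any cell that has used the locus. T cells also carry a receptor of 1 α and 1 β chain whose junctions differ between clones, so cells that share both junctions are taken as descendants of 1 cell.

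The 301 cells of the tdTomato+GFP+ gate split into 80, 157 and 64 cells in replicates 1, 2 and 3, and held 295471, 586254 and 241011 UMIs (unique molecular identifiers, each 1 counted RNA molecule). They were compared with the other Th17-like clusters of the same gate, clusters 1, 2, 3 and 13, with 2096, 1599, 1460 and 209 cells. The median cell of cluster 12 had 3644, 3556 and 3678 UMIs in the 3 replicates and 1628, 1606 and 1605 genes. Over all replicates the medians were 3597 UMIs in cluster 12, 3678 in cluster 1, 3384 in cluster 2, 3444 in cluster 3 and 3220 in cluster 13, so that depth was similar across the 5 clusters. The lanes shared 174 cell barcodes, 8 of which belonged to cluster 12 cells of the tdTomato+GFP+ gate. No doublet caller was run here.

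The cells had the RNA of CD4 T cells. Cd3e, a part of the T cell receptor complex, stood at 1880, 1942 and 1735 CPM in the 3 replicates of cluster 12, and Cd4 at 585, 554 and 521 CPM. CPM is a count scaled to its library's total, here of the counts summed over the cells of a cluster and replicate, with TMM scaling factors unless stated otherwise. Trac, the constant part of the α chain, was at 380, 328 and 310 CPM. Trdc, the constant part of the δ chain of γδ T cells, had no count in cluster 12, nor had Ms4a1 and Cd79a of B cells, Ncr1 and Eomes of NK cells, or Adgre1 and Csf1r of macrophages. Other members of these marker lists were present: the summed level was 491, 451 and 340 CPM for the γδ T cell list, which includes Tcrg-C1, 1013, 998 and 934 CPM for the NK and innate lymphoid list, and 52.2, 95.6 and 43.0 CPM for the B cell list. In clusters 1, 2, 3 and 13 these sums ran from 323 to 590 CPM, from 817 to 1059 CPM and from 39.1 to 134 CPM, and the part of such cells was not tested. Of the 243 cells with both receptor chains, 0 carried the α chain Trav11-Traj18 of invariant NKT cells and 0 the chain Trav1-Traj33 of MAIT cells.

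Cluster 12 was more common in the tdTomato+GFP+ gate. It held 80 of 1725 clustered cells (4.64%), 157 of 4560 (3.44%) and 64 of 2391 (2.68%) in the 3 replicates of this gate, and 15 of 5100 (0.294%), 6 of 3067 (0.196%) and 4 of 1815 (0.220%) in those of the tdTomato-GFP- gate. The groups did not overlap. The mean share was 3.59% ± 0.988 (SD, n = 3) against 0.237% ± 0.0512, a difference of 3.35 percentage points (two-sided exact permutation test, p = 0.1, the smallest that 3 against 3 allows). This test does not pair the replicate numbers of the 2 gates. With them paired, an exact sign-flip permutation test gave p = 0.25, the smallest that 3 pairs allow. Counted among Th17-like cells alone, cluster 12 held 6.27%, 5.26% and 4.56% in the first gate and 2.50%, 2.04% and 1.75% in the second, a difference of 3.27 percentage points (exact permutation p = 0.1). The other Th17-like clusters also had more cells in the tdTomato+GFP+ gate, so this was not particular to cluster 12. Cluster 1 had 2096 cells against 273, cluster 2 had 1599 against 476, cluster 3 had 1460 against 341 and cluster 13 had 209 against 8. The sort itself sets the make-up of each gate.

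Il17a, which encodes interleukin-17A (chr1:20730905-20734496, plus strand, GRCm38), set cluster 12 apart. In cluster 12 it stood at 50448, 53534 and 51117 CPM in replicates 1, 2 and 3, which means that about 1 RNA molecule in 20 was Il17a. In cluster 1, the next highest, it was at 22861, 23351 and 23688 CPM. Means were 9627 ± 365 CPM (SD, n = 3) in cluster 2, 7721 ± 833 in cluster 3 and 11343 ± 1494 in cluster 13. No replicate of another cluster reached the level of any cluster 12 replicate. The log2 difference from the mean of the 4 clusters was 1.95, 2.01 and 2.01 (mean 1.99 ± 0.03, SD, n = 3), and from cluster 1 alone 1.15 ± 0.04. The clusters were made from these same genes, so every difference in a gene's level between clusters is given as a description, with no test.

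Cluster 12 was also the highest among all clusters of the gate. In CPM by plain library totals, Il17a averaged 49640 in cluster 12, 23202 in cluster 1 and 11396 in cluster 13. Outside the Th17-like clusters the highest means were 6966 in cluster 11, 5602 in cluster 14 (n = 2) and 4754 in cluster 10. Cluster 9, which had Ccr7 and Lef1 RNA of naive-type cells, stood at 80.2 CPM (n = 2). The 301 cells of cluster 12 held 56033 Il17a UMIs, 13.9% of all Il17a UMIs of the gate, while the 2096 cells of cluster 1 held 49.9%.

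Cell by cell, cluster 12 was the upper end of the Il17a range. Its cells carried a median of 162.5, 173 and 168 Il17a UMIs in the 3 replicates, against 83, 86 and 84 in cluster 1. As a share of a cell's UMIs, cluster 12 ran from 3.23% to 10.6% in replicate 1, from 2.79% to 11.9% in replicate 2 and from 3.56% to 8.42% in replicate 3, with medians of 4.58%, 4.71% and 4.63%. Cluster 1 reached up to 4.28%, 4.70% and 4.77%, and 0, 0 and 1 of its cells lay above the cluster 12 median. Over all replicates, the zone of overlap held 167 of 301 cells of cluster 12, which lay below the highest cluster 1 cell, and 581 of 2096 cells of cluster 1, which lay above the lowest cluster 12 cell. Of the 8375 clustered cells of the gate outside cluster 12, 592 lay above that lowest value, 11 of them outside cluster 1. All 301 cells had Il17a UMIs. In cluster 9, 12 of 53 cells (22.6%, median depth 3301 UMIs) had any, with at most 4 in a cell.

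**Figure D1:**
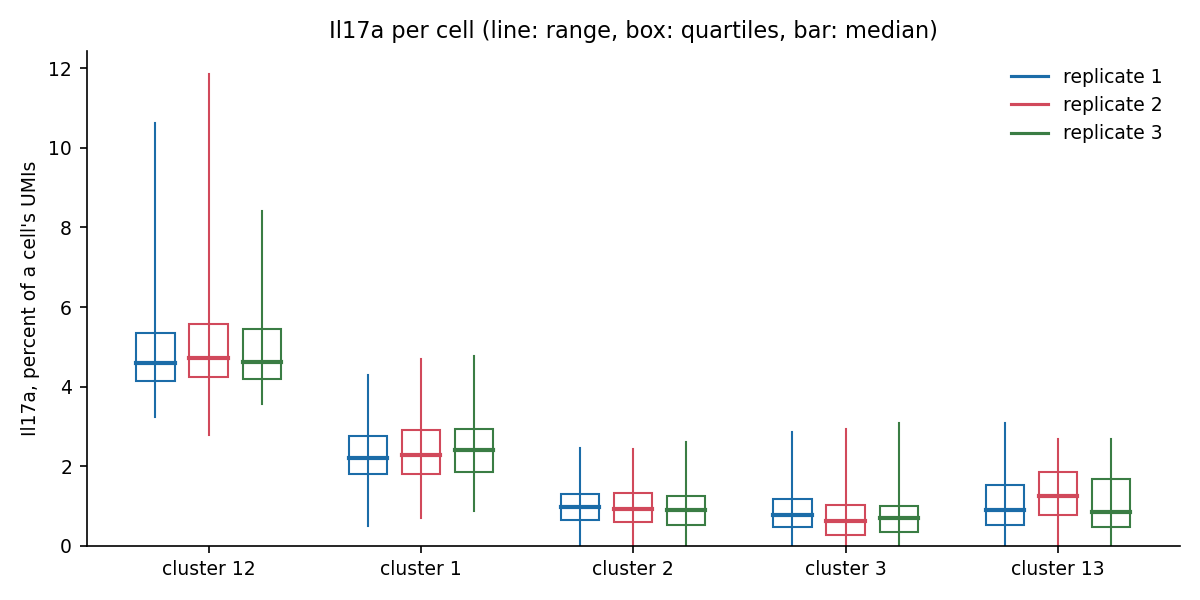
Il17a as a percent of each cell's UMIs (y axis) in the 5 Th17-like clusters of the tdTomato+GFP+ gate (x axis), for replicates 1 to 3 by colour. Lines span the range, boxes the quartiles and bars the median; cluster 12 medians of 4.58% to 4.71% sit above nearly every cell of the other clusters, while its low end overlaps the high end of cluster 1.

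Of the other markers given for the cluster, Il17f followed Il17a, Plek did so less clearly, Ccl20 was highest in cluster 13, and Gzmb varied between replicates. Il17f, the neighbouring cytokine gene (chr1:20777146-20790617, minus strand, GRCm38), was at 4648, 4343 and 5359 CPM in cluster 12 and at 3221, 2445 and 2498 CPM in cluster 1. It was higher in cluster 12 than in each of the 4 clusters in every replicate, with a log2 difference of 1.40 ± 0.23. UMIs of Il17f were found in 74.8% of cluster 12 cells and in 2 of 53 cluster 9 cells. Plek, which encodes pleckstrin, a substrate of protein kinase C, was at 233, 195 and 108 CPM in cluster 12 against means of 94.6 in cluster 1, 73.5 in cluster 2, 74.4 in cluster 3 and 117 in cluster 13. Within each replicate cluster 12 was the highest, yet its lowest replicate lay below the highest one of clusters 1 and 2, at 111 and 109 CPM, and of cluster 13, at 175 CPM. UMIs of Plek were found in 99 of 301 cluster 12 cells and in 0 of 53 cluster 9 cells.

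Ccl20 encodes the chemokine that binds CCR6 and attracts CCR6-bearing lymphocytes. It stood at 6539, 8387 and 11957 CPM in cluster 12, above clusters 1 to 3, whose replicates ran from 1413 to 3245 CPM, and below cluster 13, at 20299, 19792 and 17594 CPM. The log2 difference was 1.47 ± 0.36 from cluster 1 and −1.14 ± 0.54 from cluster 13. In every replicate, cluster 12 ranked 2 of 5 for Ccl20, and cluster 13 ranked 3 of 5 for Il17a. UMIs of Ccl20 were found in 260 of 301 cluster 12 cells, in all cluster 13 cells and in 3 of 53 cluster 9 cells.

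Gzmb encodes the protease granzyme B. Its level in cluster 12 differed more between replicates than between clusters, with 334, 1003 and 1915 CPM. Cluster 13 had 514, 565 and 2044 CPM, cluster 1 had 527, 589 and 1114 CPM, and the log2 difference of cluster 12 from the mean of the 4 clusters was 0.48 ± 0.76. Replicate 3 was the highest in each of the 5 clusters. Gzmb UMIs were found in 22 of 80, 52 of 157 and 32 of 64 cluster 12 cells, against 1 of 53 cells in cluster 9, and 3 cells held 49.0%, 30.4% and 53.9% of the Gzmb UMIs of the 3 replicates. Of the 5 markers given for cluster 12, Gzmb thus did not set it apart from clusters 1, 2 and 13 in every replicate. Against cluster 3 it was higher in 3 of 3 replicates, with log2 differences of 0.23, 2.13 and 2.04.

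**Figure D2:**
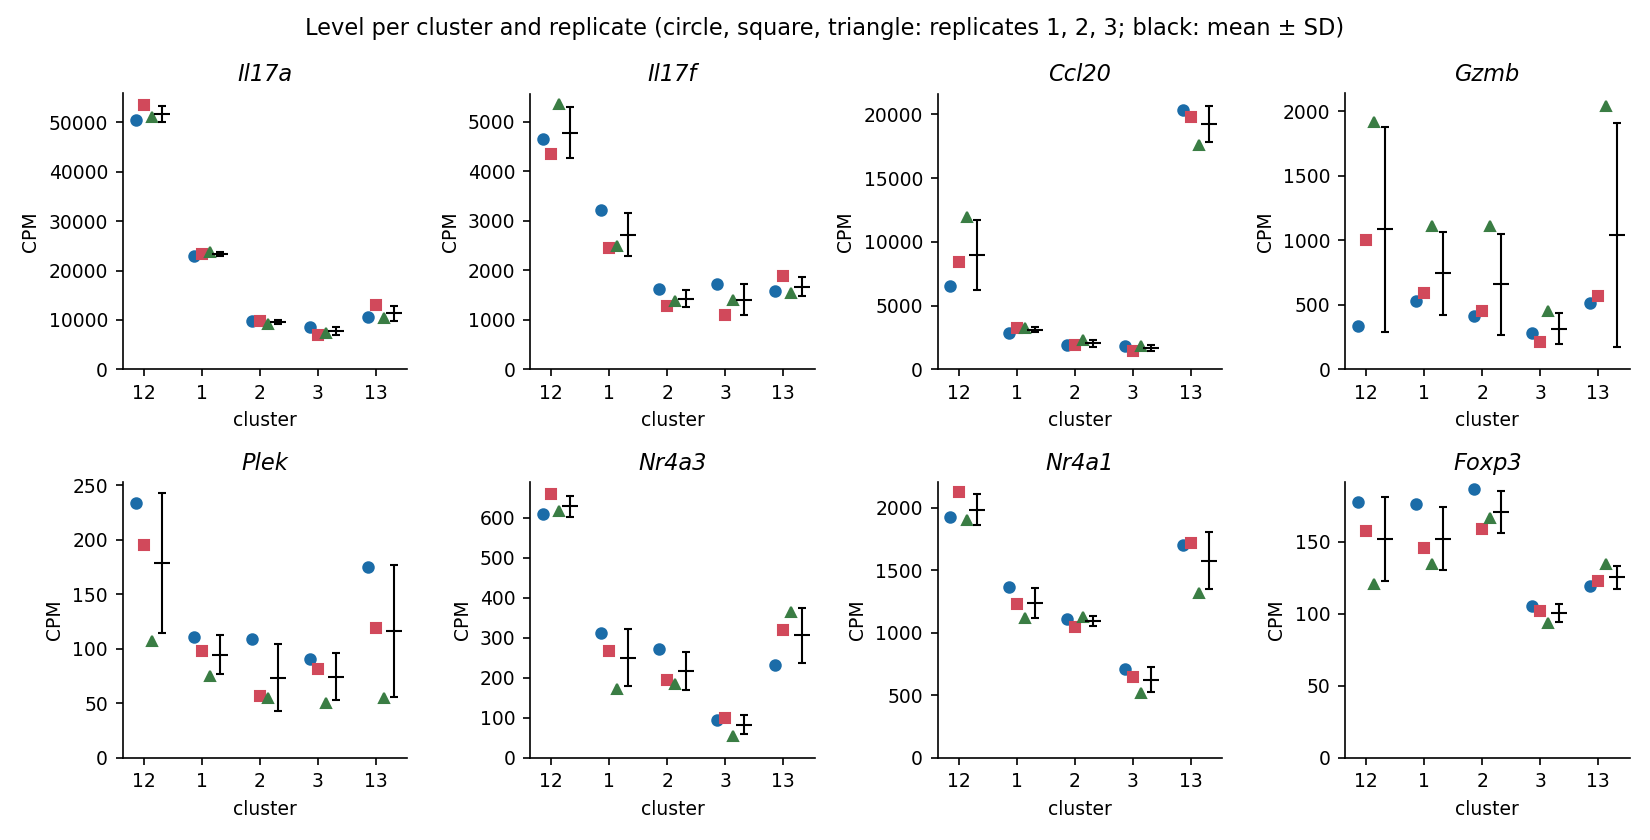
CPM (y axes, from 0) of 8 genes in clusters 12, 1, 2, 3 and 13 (x axes), with circles, squares and triangles for replicates 1, 2 and 3 and the mean ± SD in black. Il17a, Il17f, Nr4a3 and Nr4a1 are highest in cluster 12 in every replicate, Ccl20 is highest in cluster 13, and Gzmb and Foxp3 overlap between clusters.

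Of 12 Th17 transcription factors at 50 CPM or more, 0 were above and 0 below all 4 clusters in every replicate. Over all 3343 genes at that level the shares were 4.31% above and 2.93% below. The highest of them, Nfkbiz, Batf, Hif1a and Irf4, had log2 differences of 0.34, 0.28, 0.26 and 0.26. Of 6 measured Th17 receptors and membrane proteins, Tmem176b was above all (0.17 ± 0.10) and Il18r1, the receptor subunit for interleukin-18, below all (−0.56 ± 0.13). Il22, the cytokine that acts on epithelium, was at 38.3, 70.4 and 8.61 CPM in cluster 12 and its UMIs lay in 4 of 301 cells.

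Foxp3 did not set cluster 12 apart from clusters 1 and 2. It stood at 178, 157 and 121 CPM in cluster 12, against means of 152 in cluster 1, 171 in cluster 2, 100 in cluster 3 and 125 in cluster 13. UMIs of Foxp3 were found in 33 of 80, 53 of 157 and 19 of 64 cluster 12 cells, a mean of 34.9% ± 5.87 (SD, n = 3), against 38.9% ± 5.49 in cluster 1 and 41.2% ± 0.985 in cluster 2. With every cell thinned to 2000 UMIs the shares were 29.1% ± 4.48, 24.8% ± 4.36 and 27.5% ± 2.71. In the tdTomato-GFP- gate, 1 of 25 cluster 12 cells (median depth 4397 UMIs) had Foxp3 UMIs, and 2.62% ± 1.28 of cluster 1 cells did. Ctla4, an inhibitory receptor of regulatory and activated T cells, was higher in cluster 12 than in each of the 4 clusters, at 4805, 5006 and 5346 CPM, with a log2 difference of 0.51 ± 0.18. Of the 9 measured regulatory T cell genes it was the only such member, and 0 were below all (4.31% of all 3343 genes were above and 2.93% below).

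Few genes besides Il17a separated cluster 12 from its neighbours by much. Of 3343 genes with at least 50 CPM, 2 were at least 2-fold higher than in cluster 1 in all 3 replicates (0.0598%), Il17a and Ccl20, and 0 were at least 2-fold lower (0.0%). Against cluster 2 the genes higher by that much were Il17a, Ccl20, Il17f, Egr3 and Nr4a3 (0.15%). Against cluster 3 there were 14 (0.419%), among them Nr4a1, Nfkbid, Fosl2, Areg and Egr1. In neither case was a gene lower by that much (0.0%). Against cluster 13, Il17a and Il17f were higher (0.0598%) and Hspa1b, Ifng and Icam1 lower (0.0897%). These folds were taken with 20 CPM added to both levels, which draws in the folds of low genes.

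In a looser count, 144 of 3343 genes (4.31%) were higher in cluster 12 than in each of the 4 other clusters in all 3 replicates, and 98 (2.93%) were lower. The balance of the 2 directions depended on the scaling, with 66 higher and 219 lower by plain library totals, and 182 higher and 86 lower by DESeq2 size factors. It is a count of small differences for most genes: of the 144, 36 met the count again with 1 cell per clonotype and 52 with cells thinned to 2000 UMIs, and of the 98, 24 and 32 did.

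Among the 15 genes with the largest positive difference were several early targets of T cell receptor signalling. Nr4a3, an orphan nuclear receptor induced by receptor signals, was at 609, 659 and 616 CPM in cluster 12, against 312, 266 and 173 CPM in cluster 1 and 232, 320 and 365 CPM in cluster 13. All cluster 12 replicates lay above all replicates of the other clusters, and the log2 difference was 1.47 ± 0.11. Its UMIs were found in 58.8% of cluster 12 cells, and in 6 of 53 cells of cluster 9. After thinning to 2000 UMIs per cell the mean share was 49.6% ± 1.86, against 26.6% ± 5.18 in cluster 1. Its relative Nr4a1, also known as Nur77, was at 1929, 2126 and 1902 CPM, with a difference of 0.80 ± 0.13. Egr3, a zinc finger factor of the same response, was at 34.8, 48.7 and 125 CPM (1.44 ± 0.60), carried by 5, 18 and 11 cells. Without replicate 3 its mean fell under the 50 CPM minimum, so it left the count, although it was higher than in each cluster in replicates 1 and 2. Of 15 measured genes of this response these 3 were above all clusters and 0 were below, against 4.31% above and 2.93% below over all 3343 genes, with a median difference of 0.22 against 0.01.

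Others of the 15 act in signalling and survival. Sla, an adaptor that dampens T cell receptor signals, was at 1003, 810 and 659 CPM in cluster 12 against means of 576 in cluster 1 and 495 in cluster 13 (log2 difference 0.70 ± 0.02). Fosl2, an AP-1 factor, differed by 0.71 ± 0.04. Nfkbid, a nuclear member of the IκB family, differed by 0.88 ± 0.30, and was not above all clusters under either other scaling. Tnfsf11, which encodes RANKL, differed by 0.71 ± 0.17, or by 0.25 with 1 cell per clonotype, where it was not above all clusters. Bcl2a1d, an anti-apoptotic gene with close copies that can share reads, differed by 0.70 ± 0.17. Rapsn, Gldc and Selenom completed the list with Il4.

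Il4, a Th2 cytokine, met the count on few cells. It was at 10.4, 236 and 637 CPM in cluster 12, which were 3, 131 and 148 UMIs in 3, 28 and 9 cells. In replicate 3, 3 cells held 66.9% of them. Replicate 1 was low in every cluster, at 0 to 10.4 CPM. Il4 UMIs were found in 11.9% ± 7.29 of cluster 12 cells and in 11.8% ± 8.56 of cluster 2 cells.

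**Figure D3:**
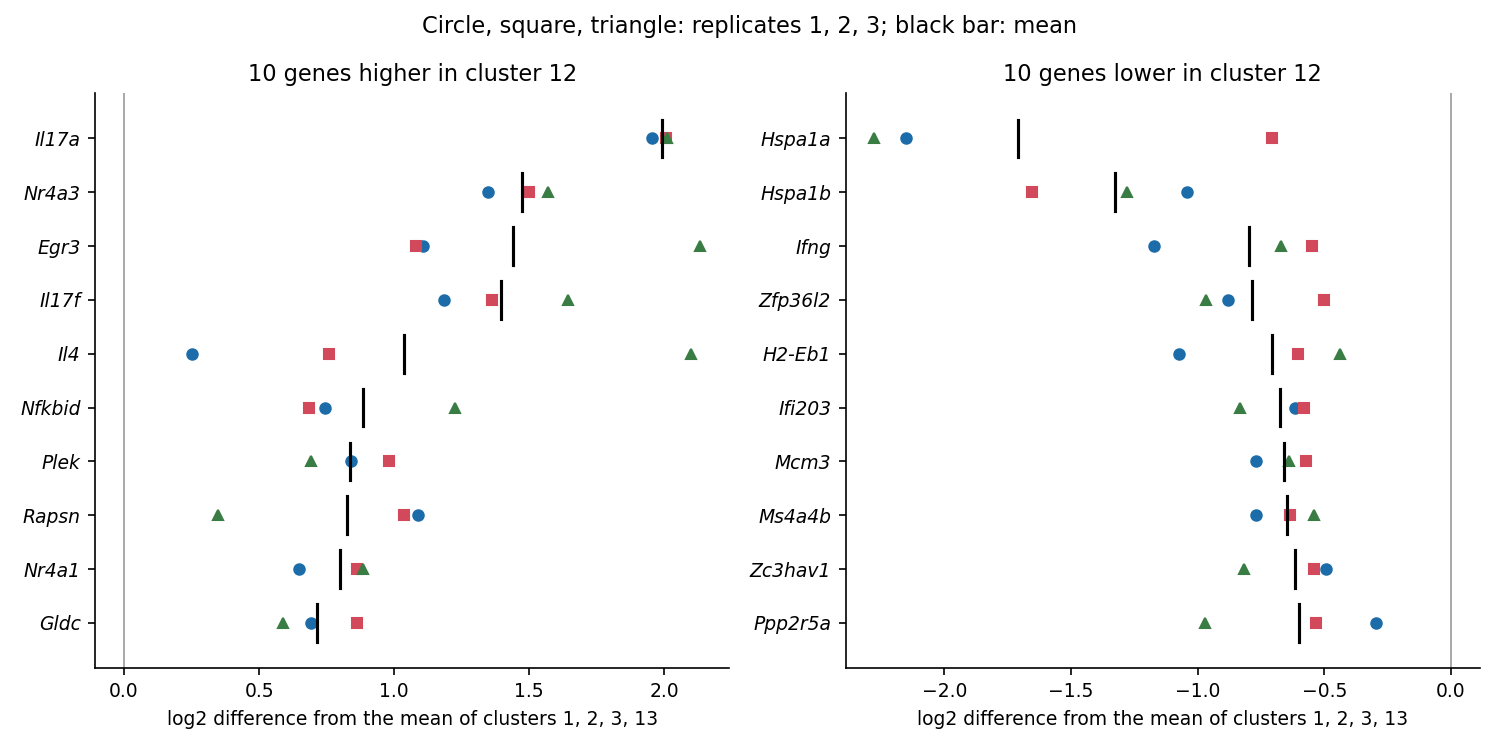
Log2 difference (x axes) of cluster 12 from the mean of clusters 1, 2, 3 and 13, with 20 CPM added, for the 10 genes with the largest positive and the 10 with the most negative mean among those on 1 side of all 4 clusters in every replicate. Circles, squares and triangles are replicates 1, 2 and 3 and bars the mean; Il17a and Nr4a3 vary little between replicates, whereas Il4, Egr3 and Hspa1a vary widely.

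Of 16 measured genes of protein folding and secretion, 4 were above all clusters, Herpud1, Pdia4, Pdia3 and Xbp1, and 0 were below, with a median log2 difference of 0.13 (4.31% of all 3343 genes were above and 2.93% below). Herpud1, a component of endoplasmic reticulum quality control, was at 299, 231 and 211 CPM and differed by 0.36 ± 0.08. Hspa5, the chaperone BiP, was at 975, 1426 and 1623 CPM (0.42 ± 0.47) and did not meet the count. The 28 genes of oxidative phosphorylation had 0 above and 1 below, Uqcrh, and the 13 of glycolysis and hypoxia had 1 above, Pkm, and 0 below, against the same shares over all genes.

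Among effector cytokines, 4 of 10 were above all clusters, Il4, Tnfsf11, Cd40lg and Tgfb1, and 1 was below, Ifng, the Th1 cytokine interferon-γ (4.31% of all 3343 genes were above and 2.93% below). With 1 cell per clonotype, Il4 and Tnfsf11 were not above all clusters, and with thinned cells Il4 was not. Ifng was at 48.7, 97.4 and 112 CPM in cluster 12 against means of 112 in cluster 1, 111 in cluster 2, 136 in cluster 3 and 276 in cluster 13, with a log2 difference of −0.80 ± 0.33. Its UMIs lay in 43 of 301 cells. It was not below all clusters with DESeq2 size factors, with 1 cell per clonotype or with thinned cells.

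The most negative differences belonged to Hspa1a and Hspa1b, neighbouring genes of 1 inducible heat shock protein (HSP70) on chromosome 17, whose near-identical sequences can share reads. Hspa1a was at 17.4, 229 and 121 CPM in cluster 12 and at 117, 300.2 and 378 CPM in cluster 1 (log2 difference from the 4 clusters −1.71 ± 0.87). Hspa1b was at 150, 202 and 400.3 CPM against 164, 545 and 781 CPM in cluster 1 (−1.33 ± 0.31). Replicate 1 was the lowest in every cluster for both genes, so cluster 12 is below the others within replicates and not across them. The tissue was digested with enzymes at a warm temperature, and of 17 measured genes of the AP-1 and dissociation response 1 was above, Fosl2, and these 2 were below all clusters (4.31% of all 3343 genes were above and 2.93% below).

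The other 13 genes of the lower list differed by −0.80 to −0.52. Mcm3, a cell cycle gene that encodes a subunit of the replicative helicase, was at 31.3, 32.5 and 30.1 CPM against means of 46.9 to 80.4 CPM in the other clusters (−0.66 ± 0.10). Hmgb2, a chromatin protein of dividing cells, was also below all clusters, which made 2 of 6 measured cell cycle genes, against 2.93% of all genes; Pcna and Tuba1b both differed by −0.08. Zfp36l2, an RNA-binding protein that promotes decay of its target RNAs, was at 52.2, 106 and 73.2 CPM against means of 122 to 189 CPM (−0.78 ± 0.25), and was below all clusters under each of the 4 settings for scaling, clones and depth. H2-Eb1, an MHC class II chain of antigen-presenting cells, was at 13.9, 27.1 and 34.4 CPM (−0.70 ± 0.33). The summed level of 12 myeloid markers was also the lowest within each replicate, at 515, 509 and 585 CPM in cluster 12 and 545 to 743 CPM over the other clusters. Of these markers, Itgam, Itgax, Adgre1 and Csf1r were at 0 in cluster 12 and the other 8 were not, and their part in this result was not tested.

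Under those 4 settings together (plain totals, DESeq2 factors, 1 cell per clonotype, thinned cells), 8 of the 15 higher genes stayed above all clusters: Il17a, Il17f, Nr4a3, Nr4a1, Egr3, Plek, Fosl2 and Sla. Of the 15 lower genes, 2 stayed below: Hspa1a and Zfp36l2.

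Receptor junctions came from other libraries than the gene counts; whether receptor transcripts entered the clustering is not given in the sources used here. Both chains were read in 72 of 80, 121 of 157 and 50 of 64 cluster 12 cells (90.0%, 77.1% and 78.1%), more than in cluster 1 (80.8%, 66.5% and 70.9%). A second β chain, which can mark doublets, was seen in 3 of the 243 cells (1.23%), against 2.82% in cluster 1 and 5.52% in cluster 2. In replicate 1 the order was the opposite, with 2.78% against 0.932% and 0.866%. A second α chain was seen in 17.7% against 12.6% and 11.3%. In replicate 1 it was seen in 16.7% against 15.4% and 17.3%, so cluster 2 was the highest of these there. A clonotype was taken as 1 pair of α and β junction sequences.

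The 243 cells belonged to 148 clonotypes, 36, 72 and 40 in the 3 replicates. The 6 clonotypes with 6 or more cluster 12 cells are shown, since they hold the most cells of the cluster. Junctions run 5′ to 3′ as deposited, from the conserved cysteine codon of the V segment to the end codon in the J segment. Lower case marks bases that match the germline V or J segment of the GENCODE annotation (GRCm38), and capitals mark the bases in between, which match neither. The α junction of clonotype 4 has no such base.
Clonotype 1 alpha: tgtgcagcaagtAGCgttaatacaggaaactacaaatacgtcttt
Clonotype 1 beta: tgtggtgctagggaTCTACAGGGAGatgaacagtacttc
Clonotype 2 alpha: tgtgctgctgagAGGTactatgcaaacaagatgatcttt
Clonotype 2 beta: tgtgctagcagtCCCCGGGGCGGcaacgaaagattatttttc
Clonotype 3 alpha: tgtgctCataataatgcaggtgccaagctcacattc
Clonotype 3 beta: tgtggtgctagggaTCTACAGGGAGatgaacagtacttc
Clonotype 4 alpha: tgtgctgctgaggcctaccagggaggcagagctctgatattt
Clonotype 4 beta: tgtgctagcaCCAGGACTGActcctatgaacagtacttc
Clonotype 5 alpha: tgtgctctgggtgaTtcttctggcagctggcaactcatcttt
Clonotype 5 beta: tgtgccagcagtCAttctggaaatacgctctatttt
Clonotype 6 alpha: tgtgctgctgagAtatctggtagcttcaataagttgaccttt
Clonotype 6 beta: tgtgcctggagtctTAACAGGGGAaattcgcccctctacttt

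Clonotypes 1 to 4 came from replicate 1 and clonotypes 5 and 6 from replicate 2. Clonotype 1 joined TRAV14D-2 (chr14:52948568-52949169) to TRAJ40 and TRBV20 (chr6:41188273-41188977) to TRBJ2-7, and clonotype 3 joined TRAV9D-3 to TRAJ39 with the same β junction. Of the 239 cells with that β junction, 99 carried both α chains, so clonotypes 1 and 3 appear as 1 family split by which α chain was listed first. The other pairs were TRAV4-4-DV10 with TRAJ47 and TRBV29 with TRBJ1-4 in clonotype 2, TRAV4D-4 with TRAJ15 and TRBV29 with TRBJ2-7 in clonotype 4, TRAV6N-7 with TRAJ22 and TRBV19 with TRBJ1-3 in clonotype 5, and TRAV4D-4 (chr14:52990866-52991389) with TRAJ4 and TRBV31 with TRBJ1-6 in clonotype 6. Clonotypes 2 and 4 share their β V segment, and 4 and 6 their α V segment, but no junction. The α junctions are 12 to 15 codons long and the β junctions 12 to 14, close to the median of 14 codons over all 148 clonotypes for each chain.

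Each of these clonotypes also had cells in clusters 1, 2, 3 and 13. Clonotype 5 had 12 cells in cluster 12, 60 in cluster 1, 37 in cluster 2, 36 in cluster 3 and 9 in cluster 13. Cluster 12 held 7.79% of its cells in the 5 clusters (95% Wilson interval 4.51% to 13.1%), and 9.09% of clonotype 1, 11.8% of clonotype 2, 7.23% of clonotype 3, 7.32% of clonotype 4 and 15.3% of clonotype 6 (8.24% to 26.5%). These intervals cover counting error only. The clonotypes were picked for their cells in cluster 12, which raises these shares. Of all clonotypes with 20 or more cells in the 5 clusters, 11 of 12, 11 of 15 and 5 of 6 had a cluster 12 cell, and the share ran from 0% to 11.8% in replicate 1, to 18.2% in replicate 2 and to 13.6% in replicate 3.

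**Figure D4:**
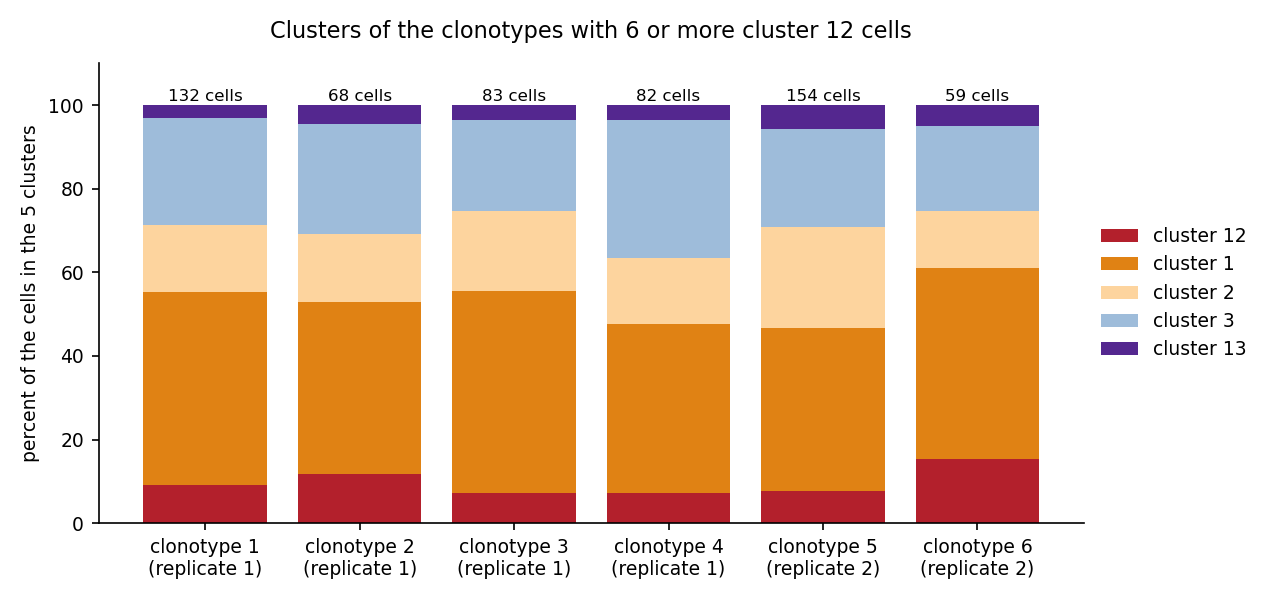
Percent of each clonotype's cells in the 5 Th17-like clusters (y axis) that lay in cluster 12, 1, 2, 3 or 13 (colours), for the 6 clonotypes with 6 or more cluster 12 cells; the number of cells stands above each bar. Each of the 6 clonotypes is spread over all 5 clusters, with 7.23% to 15.3% of it in cluster 12; clonotypes 1 and 3 share their β junction.

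The split by Il17a level also ran through single clonotypes. Cluster 12 holds the upper end of the Il17a range, so this order was set by the clusters and is no separate result. The 6 clonotypes, of which 1 and 3 share their β junction, have at least 5 cells in both clusters. Their cluster 12 cells stood at 42385 to 56926 CPM by plain totals, against 21721 to 25419 CPM in cluster 1. Clonotype 1 stood at 56926 CPM in cluster 12, 22719 in cluster 1, 10549 in cluster 2 and 12015 in cluster 3.

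Nearly all clonotypes of cluster 12 also had cells in the other Th17-like clusters, 35 of 36 (97.2%), 65 of 72 (90.3%) and 33 of 40 (82.5%) in the 3 replicates. The same clonotypes were 27.3%, 14.6% and 10.7% of the clonotypes of clusters 1, 2, 3 and 13. Clonotypes seen in no other cell of their gate and replicate numbered 0, 5 and 7. No clonotype was found in cluster 12 cells of more than 1 replicate. In all cells of the gate, 17 of the 148 were seen in a further replicate, 14 of them by 1 cell.

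Clonal sharing inside cluster 12 was close in value to that between it and its neighbours. A pair of cells of cluster 12 had the same clonotype in 5.24%, 2.01% and 1.22% of pairs in replicates 1, 2 and 3. For pairs of 1 cluster 12 cell and 1 cluster 1 cell the values were 5.27%, 1.77% and 1.48%, and with cluster 13 they were 5.83%, 2.36% and 2.18%. With cluster 0, whose cells had RNA of the Th2 genes Gata3 and Il13, sharing was 0.938%, 0.460% and 0.0865%, and with cluster 9 it was 0 in each replicate. Cluster 9 had 3, 13 and 22 cells with both chains in the 3 replicates, so a low share could go unseen. Replicate 1 stood above the other replicates within each Th17-like cluster and in each pairing of cluster 12 with another of them.

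Against the other Th17-like clusters, no difference in clonal sharing passed a test. The mean share of pairs was 2.83% ± 2.13 (SD, n = 3) within cluster 12, 2.59% ± 2.11 within cluster 1, 2.16% ± 1.43 within cluster 2, 2.59% ± 1.90 within cluster 3 and 4.65% ± 3.68 within cluster 13. Cluster 12 was higher than cluster 1 in 3 of 3 replicates by 0.233 percentage points on average, and lower than cluster 13 in 3 of 3 by 1.83 points (two-sided exact sign-flip permutation test, p = 0.25 for each, 0.5 after Benjamini-Hochberg adjustment over 4 comparisons). A p of 0.25 is the smallest that 3 pairs allow. Without 1 replicate these differences ran from 0.125 (without replicate 2) to 0.333 and from −2.47 to −0.909 (without replicate 1). Against clusters 2 and 3 the differences were 0.662 and 0.240 points (exact sign-flip permutation p = 0.5 and 0.75, adjusted 0.667 and 0.75). Without replicate 1 the first was 0.271, and without replicate 2 the other was −0.0735. By β junction alone, which joins clonotypes 1 and 3, the differences from clusters 1, 2, 3 and 13 were 0.491, 1.30, 0.794 and −1.01 points.

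Most cells of cluster 12 belonged to expanded clones. At least 1 further cell of the same gate and replicate carried the clonotype in 100%, 95.9% and 86.0% of cells, and at least 9 further cells did in 75.0%, 64.5% and 46.0%. The first share averaged 94.0% ± 7.19, against 91.8% ± 5.55 in cluster 1 and 88.2% ± 7.71 in cluster 2. It was higher than in each of these in 3 of 3 replicates, by 2.20 and 5.75 points (exact sign-flip permutation p = 0.25, adjusted 0.5 for both). In clusters 3 and 13 it was nearly the same, at 93.5% ± 2.77 and 93.6% ± 3.24. Cluster 12 was higher than each of them in 2 of 3 replicates, by 0.454 and 0.324 points on average. Against cluster 13 the share in clones of 10 or more cells was 61.8% ± 14.7 against 71.2% ± 20.3, with cluster 12 higher in 1 of 3 replicates (exact sign-flip permutation p = 0.5, adjusted 0.667). In cluster 9 of the same gate, with 3, 13 and 22 receptor cells in the 3 replicates, 8.62% ± 9.13 of cells were in clones of 2 or more.

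**Figure D5:**
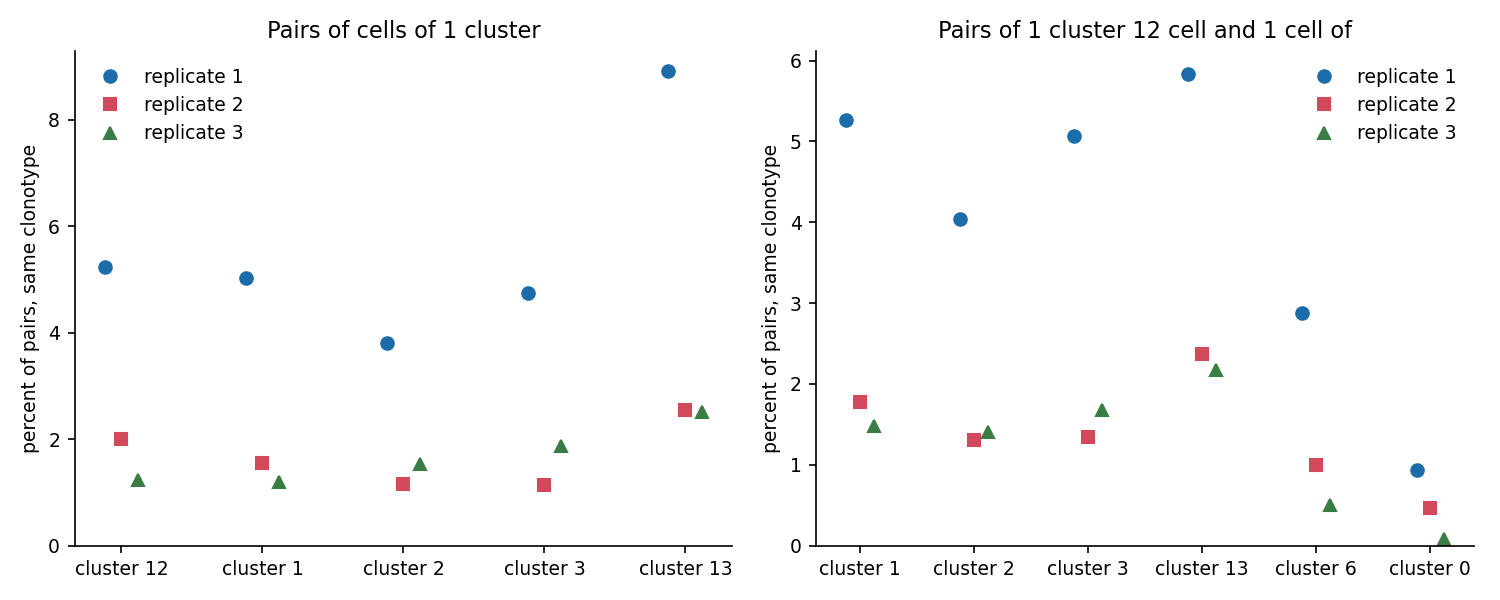
Percent of cell pairs with the same clonotype (y axes) within each cluster (left) and between 1 cluster 12 cell and 1 cell of another cluster (right), by replicate. Replicate 1 is the highest in each of the groups drawn (clusters 12, 1, 2, 3 and 13 on the left, 1, 2, 3, 13, 6 and 0 on the right), pairs of cluster 12 with cluster 1 (5.27%, 1.77%, 1.48%) lie close to pairs inside cluster 12 (5.24%, 2.01%, 1.22%), and cluster 0 is the lowest.

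The most used β segments differed between replicates. TRBV20 was found in 27.8%, 5.79% and 0% of cluster 12 cells in the 3 replicates, and in 4, 3 and 0 clonotypes. In clusters 1, 2, 3 and 13 together it was found in 23.3%, 4.16% and 4.39% of cells. TRBV19 was found in 2.78%, 16.5% and 2.0% of cluster 12 cells against 3.73%, 15.8% and 3.85%, most of them in replicate 2, where clonotype 5 uses it.

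The 25 cluster 12 cells of the tdTomato-GFP- gate, 15, 6 and 4 in the 3 replicates, were pooled and are given with exact Poisson intervals, which cover counting error only. Their Il17a level was 50865 CPM by plain totals (95% interval 49566 to 52191), against 49908 CPM in the tdTomato+GFP+ gate. Other effector genes differed between the gates. These genes were picked after their values were seen. Ifng was at 1313 CPM (1111 to 1541) against 83.7 CPM (67.7 to 102), and its UMIs were found in 10 of 15, 3 of 6 and 2 of 4 cells, against 6 of 80, 25 of 157 and 12 of 64. Il22 was found in 7, 2 and 1 of these cells, 10 of 25, against 4 of 301, although 1 cell held 132 of its 166 UMIs. Ccl20 was at 1646 CPM (1419 to 1899) against 8287 CPM (8119 to 8457) and was found in 7 of 25 cells against 260 of 301. As a mean over replicates its share of cells was 41.1% ± 31.0 (SD, n = 3) against 87.1% ± 7.72, so the replicates of the tdTomato-GFP- gate varied widely. Plek was found in 3 of 25 cells against 99 of 301. Gzmb was at 131 CPM (73.5 to 217) against 977 CPM (920 to 1037). Il17f was at 6557 CPM (6096 to 7044) against 4442 CPM (4319 to 4567), and was found in 20 of 25 cells against 225 of 301. Nr4a3 was at 814 CPM (657 to 997) against 608 CPM (564 to 656).

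For Ifng and Ccl20 the same contrasts were seen in cluster 1. Ifng UMIs were found in 65.2% ± 2.95 (SD, n = 3) of cluster 1 cells of the tdTomato-GFP- gate and in 16.3% ± 2.38 of those of the tdTomato+GFP+ gate, and after thinning to 2000 UMIs in 54.9% ± 2.91 and 10.1% ± 1.67. For Ccl20 the shares were 27.7% ± 3.85 and 79.2% ± 1.30. Both genes were picked after their values were seen, and the share of all genes that differ as much between the gates was not counted. Since each gate was 1 lane, gate and lane cannot be told apart. Among the 25 cells, 18 had both receptor chains, in 17 clonotypes, and 14 of the 18 belonged to clones of 2 or more cells in their gate and replicate. Of the 17 clonotypes, 4 were also found in the tdTomato+GFP+ gate, 2 of them in its cluster 12.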

How the data were processed

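Single-cell RNA, hashtag and receptor libraries of 2 sort gates were analysed. The deposited count table holds whole UMI counts of 15473 genes and 3 hashtags per cell, and the hashtag share of each cell is a deposited fraction from 0 to 1. Cluster numbers, replicate calls and receptor chains are the authors' own. Cell Ranger and Scanpy 1.7.2, with builds mm10 and GRCm38, are named in the submitters' processing notes; how doublets were treated is not given in the sources used here. No replicate was assigned to 4721 cells, which were left out.

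Counts without hashtags were summed per replicate and cluster (at least 20 cells), and scaled to CPM with TMM factors (edgeR 4.0.16; DESeq2 1.42.0 size factors as an alternative). Genes needed a mean of 50 CPM in cluster 12 or over the other clusters. Named genes were the 15 with the largest and the 15 with the most negative mean log2 difference (20 CPM added) among those on 1 side of all 4 clusters in every replicate, 7 fixed genes, and up to 4 of each gene list; some of these are not reported here. Thinning drew 2000 UMIs per cell without replacement. The counting script was tested on simulated data. Members and lists were chosen with earlier results of these data known. Permutation tests ran in Python 3.11.15.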

Additional observations from a re-analysis of the deposited data

How the results depend on the processing

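Of 145 alternative values, 123 kept to the main result by a rule for each kind of value. For differences between gates or clusters in share and clonal sharing the rule was the same sign, and some of these moved in size. For counts of genes it was a value within 1.5 times. For the Il17a difference, sharing between clusters, the Foxp3 share and depth it was a value within 1 SD over replicates. Leaving out 1 of 3 replicates cannot move a mean by 1 SD. For these results every value without 1 replicate was therefore bound to count as kept. The p-values played no part in this rule, and a change of test alone counted as kept. The gate difference in cluster 12's share lay between 2.85 and 3.80 points without 1 replicate; it was 4.17 points with hashtag shares of at least 0.95, where 39 cells of replicate 1 were left in the tdTomato+GFP+ gate, and a replicate block by an exact sign-flip permutation test gave p = 0.25. Genes above and below all clusters numbered 66 and 219 by plain totals, 191 and 194 with a minimum of 20 CPM, 236 and 292 with none, and 321 to 369 and 237 to 312 without 1 replicate, where fewer replicates must agree. Without replicate 3, Egr3 fell under the 50 CPM minimum. The Il17a log2 difference was 1.92 by plain totals, 2.02 by DESeq2 factors, 1.94 as a mean over cells, and 1.98 to 2.01 without 1 replicate. Without the largest clonotype of each replicate, sharing within cluster 12 was below clusters 1 and 3, with differences of −0.0441 and −0.0327 points; without 1 replicate the difference from cluster 3 was −0.0735 to 0.682, from cluster 1 0.125 to 0.333, from cluster 2 0.271 to 1.15 and from cluster 13 −2.47 to −0.909. The share in clones of 2 or more cells differed by −1.08 to 3.43 points from cluster 3 and −2.06 to 3.98 from cluster 13, and that in clones of 10 or more by −3.01 to 0.00594 from cluster 3, without 1 replicate; the causes were not tested. No p was below 0.1. With 1 cell per clonotype, cluster 13 of replicate 1 had 16 cells and was left out. Depth limits low genes: 3 UMIs over the 301 cells are 2.67 CPM.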
